A study of Mus musculus with 12 samples.

Results

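The 10 genes described here build and load major histocompatibility complex (MHC) class I molecules. They were taken by symbol from a table of 55401 gene rows, and all 10 were among the 15813 genes that were tested because 3 or more libraries reached 1 FPKM. FPKM is fragments per kilobase of transcript, scaled to the fragments mapped in each library, so levels of different genes can be compared per length. The libraries came from whole tumours that grew after MTC-Q1 mouse oral cancer cells were injected into the oral tissue of C57BL/6 mice. Each of 4 groups had 3 libraries. Ctrl-IgG mice received an IgG1-Fc isotype control, aCSF1R mice an antibody against CSF1R, IL-10-Fc mice IL-10 joined to an Fc part, and BF10 mice a single protein that joins IL-10 to the CSF1R antibody. CSF1R is the receptor that keeps macrophages alive, and IL-10 is a cytokine that acts on macrophages and T cells. By the labels all mice shared the cell line, the host strain and the injection site, although marker genes given below differ between groups. The labels give neither age nor genotype beyond the strain. Treatment started at a tumour size of 100 mm3. The treatment protocol of the labels speaks of 6 doses and the design text of 4, and which holds for these tumours could not be told. Nothing in the labels says how mice were distributed over cages or days. The p-values measure the spread between these libraries, which holds the difference by GC content given below as well as differences between tumours.

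Nucleated cells cut cytosolic proteins with the proteasome, and interferon exchanges some of its catalytic subunits for inducible ones, among them those made from Psmb8 and Psmb9. The TAP transporter, formed by Tap1 and Tap2, pumps the peptides into the endoplasmic reticulum, where tapasin (Tapbp) holds the empty class I molecule next to the transporter until a peptide binds. The finished molecule is a heavy chain, such as H2-K1 or H2-D1, paired with the light chain B2m, and it shows the peptide to CD8+ T cells. H2-T23 encodes Qa-1, a non-classical heavy chain read by receptors on NK cells and some T cells, and Nlrc5 is the transactivator that switches on class I genes.

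Shown first are promoter sequences of the class I chains, to show which short regulatory boxes each of these promoters holds. RefSeq start sites on GRCm38.p6 were found for 8 of the 10 genes, all but Tap2 and Nlrc5. The 200 bases before the H2-K1 start (chr17:34000348-34000547, minus strand) and the 199 bases up to the B2m start (chr2:122147487-122147685, plus strand) are printed 5′ to 3′, with 4 motifs in capitals.
H2-K1: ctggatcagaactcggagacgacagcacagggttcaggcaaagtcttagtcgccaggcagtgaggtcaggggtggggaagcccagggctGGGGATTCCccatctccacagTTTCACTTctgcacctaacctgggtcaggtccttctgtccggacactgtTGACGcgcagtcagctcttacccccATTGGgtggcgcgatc
B2m: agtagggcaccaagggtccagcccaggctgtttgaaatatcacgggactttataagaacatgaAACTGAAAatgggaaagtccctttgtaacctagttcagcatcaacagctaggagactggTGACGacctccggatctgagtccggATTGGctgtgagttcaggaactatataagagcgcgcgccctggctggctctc
The motifs were GGGGATTCC (the letters of an NF-κB site), TTTCNNTT (the core of an interferon response element), TGACG and ATTGG (the cores of the X2 and Y boxes), each sought on both strands in the 250 bases before a start. Among all 32851 promoters of that table, 0.213% held GGGGATTCC, 21.3% held TTTCNNTT, 17.8% held TGACG and 33.8% held ATTGG. H2-K1 and H2-D1 held all 4, and no other of the 8 genes held GGGGATTCC. B2m held the other 3, and H2-T23 held TTTCNNTT and ATTGG.

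From GGGGATTCC to the end of TTTCACTT, the H2-K1 (chr17:34000430-34000458, minus strand) and H2-D1 (chr17:35262923-35262951, plus strand) stretches matched at 28 of 29 letters. The H2-T23 stretch (chr17:36032807-36032836, minus strand) held TTTCNNTT with no GGGGATTCC before it. The same 4 motifs are in capitals.
H2-K1: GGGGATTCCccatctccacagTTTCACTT
H2-D1: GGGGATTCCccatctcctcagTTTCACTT
H2-T23: gatcctactgcTTTCTCTTtcataaagaca
Tap1 and Psmb9 lie head to head, with RefSeq starts 226 bases apart, so their windows overlap. Both held the same TGACG and the same ATTGG, read on opposite strands. The Tapbp window held ATTGG alone, and the Psmb8 window held none of the 4 but held TTCNNNGAA, which was in 7.02% of all promoters. The printed H2-D1 and H2-T23 stretches lie within exons of the GENCODE M21 annotation, at 29 of 29 and 30 of 30 bases. RefSeq and GENCODE thus place the starts of these genes differently. A match of letters is a description of the sequence, not of binding.

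On GRCm38 with GENCODE M21 annotation all 10 are protein-coding genes, and 8 lie in or near the MHC on chromosome 17. Tapbp is at chr17:33915899-33929292, H2-K1 at chr17:33996017-34000347, Psmb9 at chr17:34181987-34187764 and Tap1 at chr17:34187553-34197225. Psmb8 follows at chr17:34197721-34201454, Tap2 at chr17:34203527-34216321, H2-D1 at chr17:35262730-35267499 and H2-T23 at chr17:36029773-36032855. B2m is at chr2:122147686-122153083 and Nlrc5 at chr8:94434356-94527272.

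The libraries differed in ways that touch every value below. Ctrl-IgG and aCSF1R (6 libraries, the first set) differed from IL-10-Fc and BF10 (6 libraries, the second set) in genes that mark strain, sex and cell type. H2-Ea, a class II chain that C57BL/6 mice do not transcribe, was at 0.04 to 0.27 FPKM in the first set and 552.8 to 1727 FPKM in the second. Xist was at 0.01 to 0.04 FPKM in the former and 17.1 to 30.7 FPKM in the latter. The keratin genes Krt8 and Krt18 reached at most 0.28 and 0.09 FPKM in the former and at least 168.9 and 293.6 FPKM in the latter. Krt5, a keratin of stratified squamous epithelium, was at or below 2.38 FPKM throughout the second set and listed at 0 in some libraries of both sets. BF10 replicate 3 listed the Y-linked gene Eif2s3y at 3.29 FPKM, against at most 0.05 FPKM in the other 5 libraries of its set and 4.23 to 11.3 FPKM in the first set. In the 4 comparisons that cross the sets, treatment and these markers cannot be told apart. aCSF1R against Ctrl-IgG and BF10 against IL-10-Fc stay within a set, but the first set was itself split. Krt5 was at 137.8 FPKM in Ctrl-IgG replicate 3 and at 56.4 and 101.2 FPKM in aCSF1R replicates 1 and 2. In the other libraries of that set it was at most 0.04 FPKM. The muscle gene Acta1 was at 313.4, 215.3 and 237.6 FPKM in the same libraries, against 3.54 to 28.6 FPKM. The part of this split was not tested.

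A second difference ran through the groups. BF10 replicate 1, Ctrl-IgG replicate 2 and the first 2 replicates of IL-10-Fc had FPKM sums of 819001 to 976950 and a mitochondrial share of 6.57% to 9.04%, and the other 8 libraries had sums of 637596 to 701275 and shares of 2.99% to 3.61%. Against the other libraries of their own group, these 4 had higher values for genes of low GC content and lower values for genes of high GC content. Over the fifth of genes with the lowest GC content the median difference in log2(FPKM + 1) was 0.39 in Ctrl-IgG, 0.30 in IL-10-Fc and 0.30 in BF10, and over the fifth with the highest it was -0.97, -0.99 and -0.66. B2m, with a transcript GC content of 41.2%, was higher in the 4 libraries by a mean of 1.40 on that scale. The other 9 genes, with 52.8% to 64.5% GC, were all lower, by 2.23 for H2-D1, 2.12 for H2-T23, 2.07 for Tap2, 1.17 for Tapbp and 0.09 for Psmb9. The members' values in each comparison are therefore given with the 12 libraries and again without these 4. For most gene lists the BF10 counts are given in both ways. Leaving out the 4 libraries was a choice made after seeing the data. The second fit leaves 2 Ctrl-IgG, 3 aCSF1R, 1 IL-10-Fc and 2 BF10 libraries, and the single IL-10-Fc library is assumed to vary like the other groups.

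**Figure D1:**
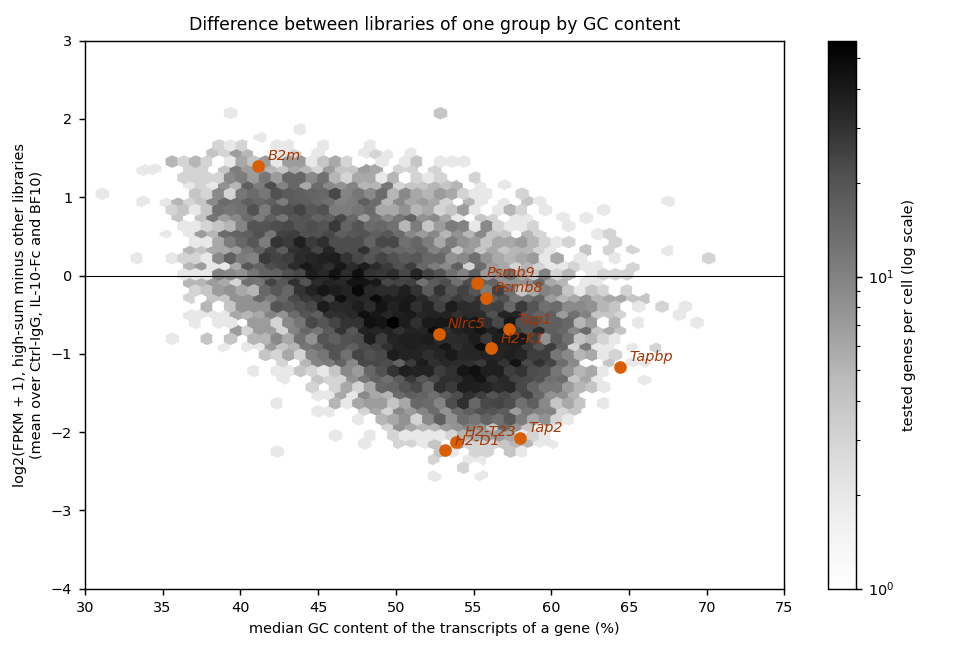
Each grey cell holds tested genes by the median GC content of their transcripts (x axis, %) and by the difference in log2(FPKM + 1) between the 4 libraries with an FPKM sum over 800000 and the other libraries of the same group (y axis, mean over Ctrl-IgG, IL-10-Fc and BF10). The orange points are the 10 class I genes, with B2m at 1.40 and H2-D1, H2-T23 and Tap2 between -2.07 and -2.23.

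The class I chains were among the most abundant transcripts of these tumours. The light chain B2m measured 3138, 5622 and 2906 FPKM in Ctrl-IgG, 3479, 3538 and 3787 in aCSF1R, 9478, 10701 and 2763 FPKM under IL-10-Fc, and 7360, 2484 and 2930 FPKM under BF10. Its 4 highest values were those of the 4 libraries with a high FPKM sum, and the groups overlapped. Without them B2m ran from 2906 to 3787 FPKM in 5 libraries of the first set and from 2484 to 2930 FPKM in 3 of the second. In bulk tissue fewer cells of a type and less RNA per cell cannot be told apart.

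The classical heavy chain H2-K1 measured 2887, 1363 and 2646 FPKM in Ctrl-IgG, 3293, 3543 and 3164 in aCSF1R, 1727, 1454 and 3736 FPKM under IL-10-Fc, and 2359, 3252 and 3576 FPKM under BF10. H2-D1, the other classical heavy chain, measured 1213, 235.5 and 1076 FPKM in Ctrl-IgG, 1231, 1305 and 1255 in aCSF1R, 325.2, 275.3 and 1682 FPKM under IL-10-Fc, and 404.8, 1499 and 1604 FPKM under BF10. In both genes the lowest value of each of these 3 groups with a high-sum library was that library, and aCSF1R, which has none, spread least. The H2-D1 to H2-K1 ratio within a library was 0.368 to 0.461 in the 8 other libraries and 0.172 to 0.189 in the 4. Among the 8, H2-D1 was higher in all 3 libraries of the second set (1499 to 1682 FPKM) than in all 5 of the first (1076 to 1305 FPKM), a ratio of means of 1.31, and H2-K1 overlapped. Class I heavy chains are near-identical and polymorphic, so the sharing of reads between them, and the mapping of any non-C57BL/6 allele, is uncertain in every value of this family.

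H2-T23, the Qa-1 chain, showed the widest range between groups. It measured 25.3, 8.29 and 36.5 FPKM in Ctrl-IgG, 24.2, 31.2 and 25.4 in aCSF1R, 38.4, 36.5 and 231.9 FPKM under IL-10-Fc, and 47.8, 202.7 and 190.0 FPKM under BF10. All 6 values of the second set lay above all 6 of the first, although the closest pair rounds to the same value. Without the 4 libraries the gap widened to 190.0 to 231.9 FPKM against 24.2 to 36.5 FPKM, and the ratio of means was 7.29.

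Tap1, a transporter chain, and Tapbp were lower in IL-10-Fc than in aCSF1R by the test given below, and neither was called against Ctrl-IgG with 12 libraries. Tap1 measured 186.8, 82.0 and 176.9 FPKM in Ctrl-IgG, 215.3, 252.0 and 208.1 in aCSF1R, 95.3, 47.0 and 105.3 FPKM under IL-10-Fc, and 95.1, 101.3 and 131.1 FPKM under BF10. Tapbp measured 347.8, 138.5 and 362.1 FPKM in Ctrl-IgG, 376.7, 467.6 and 365.9 in aCSF1R, 110.4, 70.6 and 232.6 FPKM under IL-10-Fc, and 132.1, 204.9 and 246.0 FPKM under BF10. Both were lower in every library of the second set than in every aCSF1R library and, among the 8 other libraries, than in both Ctrl-IgG libraries, with ratios of means of 0.542 for Tap1 and 0.593 for Tapbp between the 2 sets. Over those 8 libraries 4 members were higher in the second set without overlap (H2-T23, Psmb8, H2-D1 and Psmb9), as were 25.4% of all tested genes, 2 were lower (36.8% of all), and 4 overlapped.

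Tap2, the other chain of the transporter, differed from Tap1 mainly without the high-sum libraries. With 12 libraries its log2 change in IL-10-Fc was -0.75 against Ctrl-IgG and -1.74 against aCSF1R, beside -0.83 and -1.51 for Tap1. In BF10 it was 0.08 and -0.91, beside -0.36 and -1.05 for Tap1. Tap2 measured 75.6, 15.9 and 74.2 FPKM in Ctrl-IgG and 88.3, 108.9 and 76.9 in aCSF1R. It measured 19.2, 12.8 and 72.6 FPKM under IL-10-Fc, and 19.1, 72.3 and 77.5 FPKM under BF10. Among the 8 other libraries the sets overlapped, at 74.2 to 108.9 FPKM against 72.3 to 77.5 FPKM. The ratio of Tap1 to Tap2 within those libraries was 2.31 to 2.71 in the first set and 1.40 to 1.69 in the second.

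Psmb8 and Psmb9, inducible proteasome subunits, were above all Ctrl-IgG values in each library of the second set, and neither was called against aCSF1R with 12 libraries. Psmb8 measured 268.7, 179.6 and 231.1 FPKM in Ctrl-IgG, 274.6, 285.5 and 295.5 in aCSF1R, 363.4, 290.5 and 463.2 FPKM under IL-10-Fc, and 444.7, 409.9 and 400.7 FPKM under BF10. Psmb9 measured 158.0, 118.2 and 134.6 FPKM in Ctrl-IgG, 184.4, 182.6 and 182.7 in aCSF1R, 205.1, 216.3 and 224.3 FPKM under IL-10-Fc, and 211.4, 191.8 and 198.0 FPKM under BF10. These were the members least moved by the high-sum libraries, and Psmb9 had the groups in the order Ctrl-IgG, aCSF1R, then BF10 and IL-10-Fc, of which the last 2 overlapped. Nlrc5, the transactivator, measured 71.2, 46.8 and 57.5 FPKM in Ctrl-IgG, 88.6, 106.5 and 70.7 in aCSF1R, 30.6, 36.1 and 75.4 FPKM under IL-10-Fc, and 46.4, 66.9 and 79.1 FPKM under BF10. Its groups overlapped in all comparisons.

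**Figure D2:**
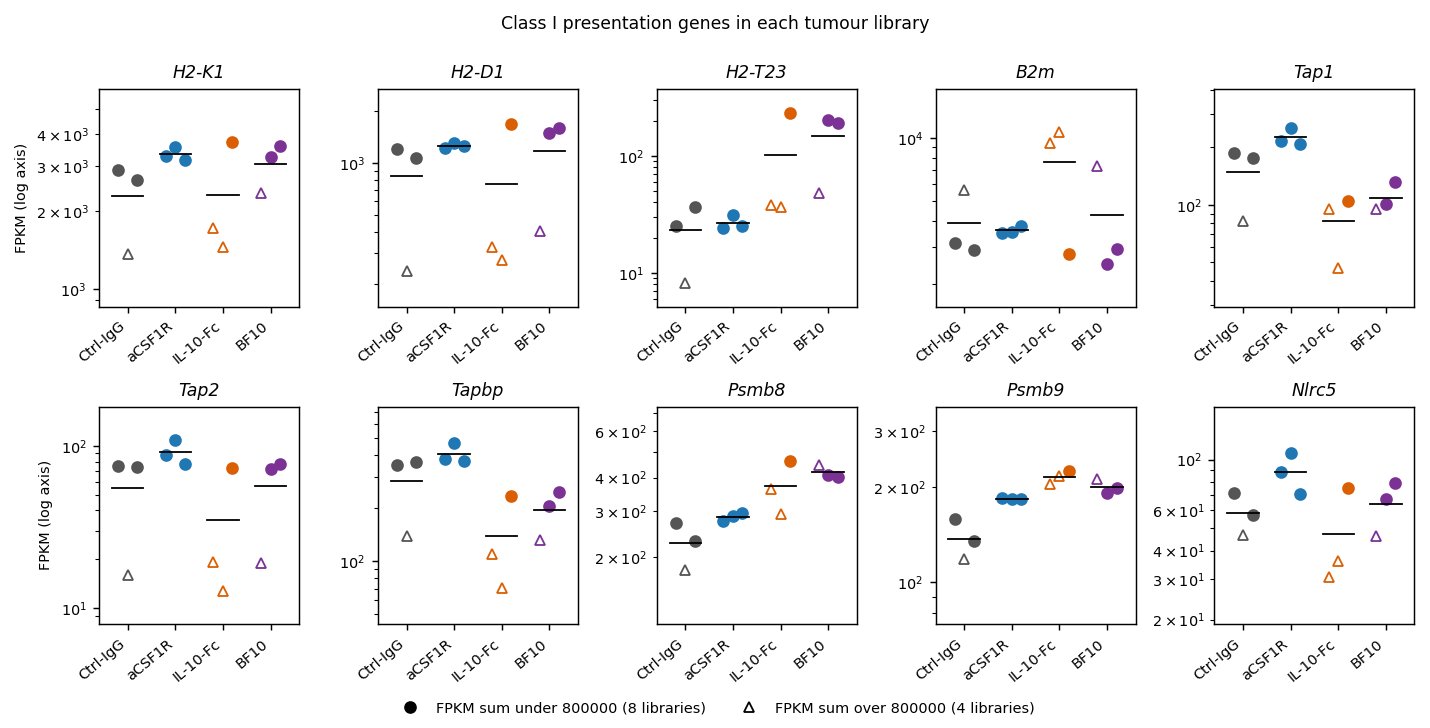
FPKM of each of the 10 genes (log axis, 1 panel a gene) in the 3 libraries of each group, with the group mean as a line. Filled circles are the 8 libraries with an FPKM sum under 800000 and open triangles the 4 above it, which hold the 4 highest B2m values and the lowest Tap2 values.

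The first question was whether the CSF1R antibody changed class I genes against the isotype control, a comparison within 1 set. No member passed the test, and no gene of the 15813 did (0%), while 437 had an unadjusted p under 0.05. The test was limma on log2(FPKM + 1) with Benjamini-Hochberg adjusted p over all tested genes, and a called gene had to reach a 1.5-fold difference with an adjusted p under 0.05. Of the members, Psmb9 had an unadjusted p under 0.05, with a log2 fold change of 0.43 ± 0.17 (SE, n = 3 per group) and a limma adjusted p of 0.958. The log2 fold changes of the 10 genes ran from -0.05 (B2m) to 0.99 (Tap2) with a median of 0.60, beside a median of 0.11 over all tested genes. With values centred by GC content the median of the 10 was 0.24, with 9 of them above 0. Psmb9 was then at 0.07 ± 0.34 and Psmb8 at -0.004. For 7 members (H2-K1, H2-D1, Tap1, Tap2, Tapbp, Psmb8 and Psmb9) all 3 aCSF1R values were above all 3 Ctrl-IgG values, a pattern held by 8.87% of all tested genes, with 6.04% the other way. Without Ctrl-IgG replicate 2 the pattern held for 8 members and 12.1% of genes. In the fit without the 4 libraries the log2 fold changes ran from -0.18 (H2-T23) to 0.44 (Nlrc5), with a median of 0.26 and limma adjusted p of 0.411 or more. Summed CD8 T cell markers ran from 189.0 to 216.3 FPKM in aCSF1R, inside the Ctrl-IgG range of 89.6 to 238.8 FPKM. The largest part of that sum was Gzmb, a cytotoxic granule gene, at 126.2 to 152.3 and 57.0 to 165.1 FPKM. Cd8a was at 1.08 to 3.45 FPKM in aCSF1R and 2.10 to 2.27 FPKM in Ctrl-IgG. Summed macrophage markers were lower in aCSF1R (252.1 to 272.3 FPKM) than in Ctrl-IgG (426.4 to 783.5 FPKM). Their part in these differences was not tested.

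The second comparison within a set asked what BF10 added to IL-10-Fc. None of the 10 genes was called, where 0.0126% of all genes were (2 genes, with 828 at an unadjusted p under 0.05), and none of the 10 had an unadjusted p under 0.05 in limma. The log2 fold changes ran from -0.80 (B2m) to 0.90 (H2-D1), with a median of 0.51 beside 0.34 over all genes, and no member separated the groups, as 5.18% of all genes did (4.67% higher in BF10). The 95% intervals were wide, from -0.88 to 2.67 for H2-D1 and from -0.47 to 0.27 for Psmb9. Without the 4 libraries the changes ran from -0.24 (H2-T23) to 0.13 (Tap1) and none was called, beside 0.373% of all genes called higher and 0.0316% called lower. IL-10-Fc held 2 of the high-sum libraries and BF10 held 1.

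The 4 comparisons across the sets carry the marker differences given above. IL-10-Fc against Ctrl-IgG called 2 members, both higher, beside 33.7% of all genes called in either direction, 10.1% higher and 23.6% lower. H2-T23, Psmb8 and Psmb9 were higher without overlap and 0 members lower, beside 37.3% of genes without overlap, 12.2% higher and 25.2% lower. Psmb8 rose 1.63-fold (log2 0.71 ± 0.22 SE, limma adjusted p = 0.0290) and Psmb9 1.58-fold (0.66 ± 0.17, adjusted p = 0.0120). Without Ctrl-IgG replicate 2 both calls were lost, with Psmb8 at 0.55 (adjusted p = 0.0794) and Psmb9 at 0.56 (adjusted p = 0.0326, fold under 1.5), and Tap1 and Tapbp were called lower. The Psmb8 call was also lost without Ctrl-IgG replicate 3 or IL-10-Fc replicate 1 or 3, at 0.54 to 0.73. H2-T23 had a log2 fold change of 1.74 (adjusted p = 0.105), Tap1 of -0.83 (adjusted p = 0.0998) and Tapbp of -1.08 (adjusted p = 0.0963). Without the 4 libraries, with 1 IL-10-Fc library left, 5 members were called beside 39.7% of all genes, the additional ones being H2-T23 (2.89 ± 0.23), Tap1 (-0.78 ± 0.18) and Tapbp (-0.61 ± 0.18).

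BF10 against Ctrl-IgG also called 2 members, beside 24.9% of all genes, 11.8% higher and 13.2% lower. The same 3 members as in IL-10-Fc were higher without overlap, beside 17.3% of genes higher and 21.1% lower. H2-T23 rose 5.92-fold (log2 2.56 ± 0.78 SE, 95% interval 0.85 to 4.28, limma adjusted p = 0.0330). This call was lost without Ctrl-IgG replicate 1 or 2 or BF10 replicate 2 or 3, where H2-T23 was at 1.98 to 2.73 with adjusted p of 0.0662 to 0.121. Psmb8 rose 1.87-fold (0.90 ± 0.22, adjusted p = 0.0117). Psmb9 had an adjusted p of 0.0325 at a fold of 1.47, under the limit of 1.5. Without the 4 libraries 4 members were called beside 40.4% of all genes, H2-T23 (2.65 ± 0.19) and Psmb8 (0.70 ± 0.09) higher and Tap1 (-0.65 ± 0.15) and Tapbp (-0.66 ± 0.15) lower.

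Against aCSF1R, IL-10-Fc called 3 members, all lower, beside 42.2% of all genes and 31.2% called lower. Without overlap, 2 members were higher (Psmb9 and H2-T23) and 3 lower (Tap1, Tap2 and Tapbp), beside 56.1% of genes, 15.4% higher and 40.6% lower. Tapbp fell by 1.71 on the log2 scale (SE 0.47, limma adjusted p = 0.0148), Tap1 by 1.51 (SE 0.36, adjusted p = 0.00799) and Nlrc5 by 0.98 (SE 0.34, adjusted p = 0.0398). Leaving out 1 library at a time, the Tap1 call was kept, the Tapbp call was lost without aCSF1R replicate 2 or IL-10-Fc replicate 1 or 2 (adjusted p = 0.0515 to 0.0638), and the Nlrc5 call was lost without any 1 of these or of the other aCSF1R libraries. The Nlrc5 call was lost without the 4 libraries (log2 -0.21, adjusted p = 0.496), where 4 members were called beside 40.2% of genes. These were Tap1 (-1.08) and Tapbp (-0.78) lower, and H2-T23 (3.07) and Psmb8 (0.70) higher.

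BF10 against aCSF1R called 0 members in limma, beside 25.0% of all genes (14.0% of all genes were lower), although 4 had an unadjusted p under 0.05. Their log2 fold changes were 2.15 for H2-T23 (adjusted p = 0.0658), -1.05 for Tap1 (0.0577), -1.09 for Tapbp (0.116) and 0.55 for Psmb8 (0.0914). Without the 4 libraries 3 were called beside 40.6% of genes, H2-T23 (2.83 ± 0.17), Tap1 (-0.95 ± 0.14) and Tapbp (-0.83 ± 0.13). Without overlap, 3 members were higher and 2 lower, beside 55.7% of genes, 19.8% higher and 35.9% lower. The difference between the BF10 effect and the added effects of aCSF1R and IL-10-Fc was called for 0 members and 1 gene (0.00632%), with 1 member, Psmb9, at an unadjusted p under 0.05 (log2 -0.53 ± 0.24, limma adjusted p = 1.00).

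**Figure D3:**
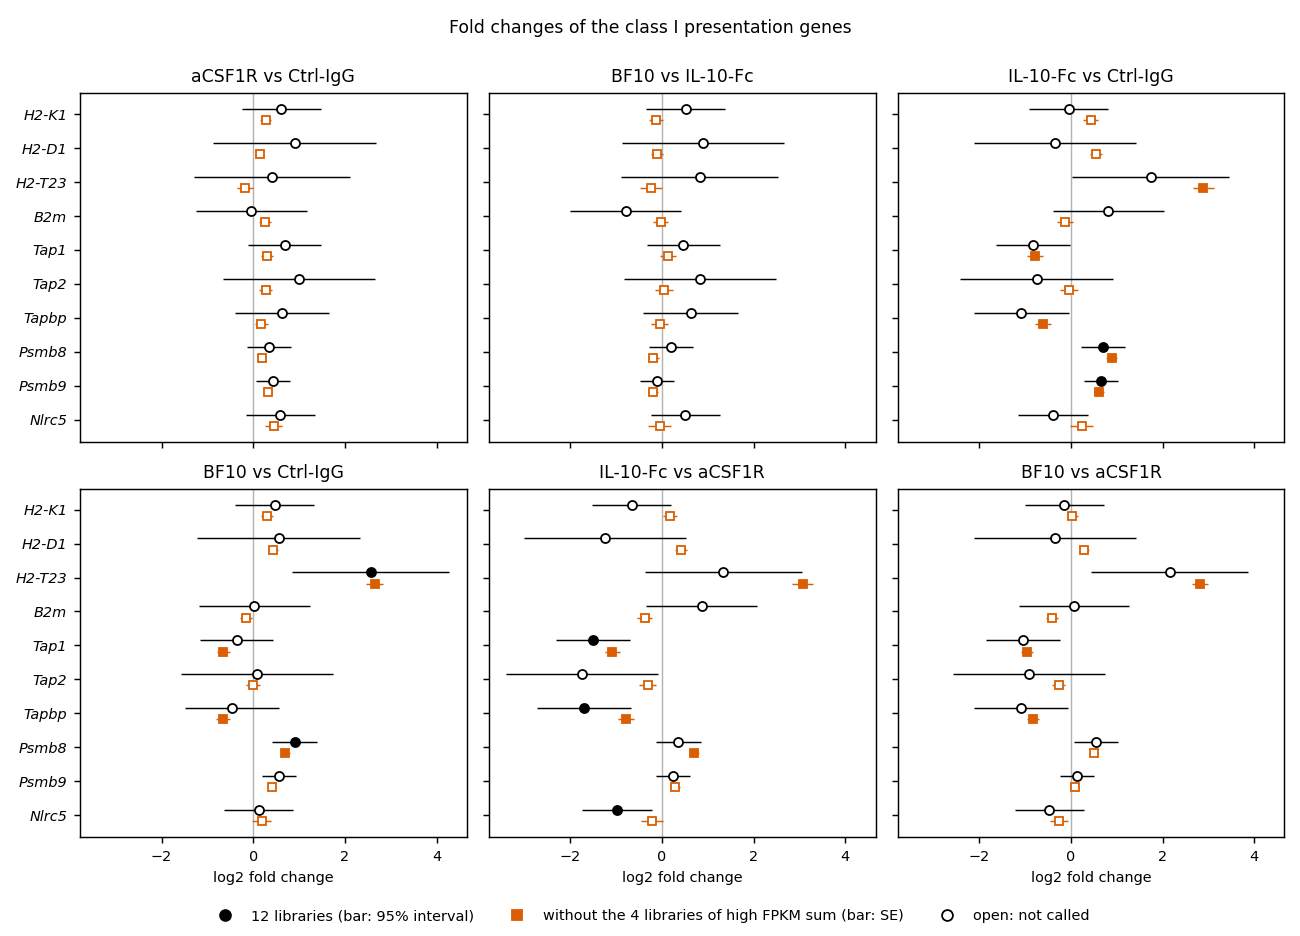
Log2 fold changes (x axis) of the 10 genes in 6 comparisons. Black circles with 95% intervals use 12 libraries and orange squares with standard errors leave out the 4 with a high FPKM sum, and filled symbols passed the test. H2-T23 sits between 2.65 and 3.07 without those libraries in the 4 comparisons across the sets, and no symbol is filled in the 2 within them.

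Other class I heavy chains were listed to place H2-T23. Of 19, 16 were tested, and 7 were higher and 0 lower in IL-10-Fc against Ctrl-IgG, 9 and 0 in BF10 against Ctrl-IgG, and 7 and 0 in either group against aCSF1R, with medians of 1.26, 1.42, 0.79 and 1.20 beside -0.39, -0.12, -0.51 and -0.21 over all genes. Of all genes 10.1% were higher in IL-10-Fc and 11.8% in BF10 against Ctrl-IgG. Without the 4 high-sum libraries 11 heavy chains were higher in BF10 against Ctrl-IgG and 10 against aCSF1R, with 0 lower. The shares of all genes called higher were then 18.8% and 18.9%. H2-Q2 was at 0.09 to 0.32 FPKM in the first set and 40.9 to 117.1 FPKM in the second. H2-Q10, a chain secreted by the liver, was at 0.79 to 2.76 FPKM and 36.4 to 156.1 FPKM, and H2-Q1 at 0 to 0.02 FPKM and 9.18 to 39.3 FPKM. No heavy chain was called in the 2 comparisons within a set. H2-Ea and Xist moved with this group of genes over the same 6 libraries, and their part was not tested.

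**Figure D4:**
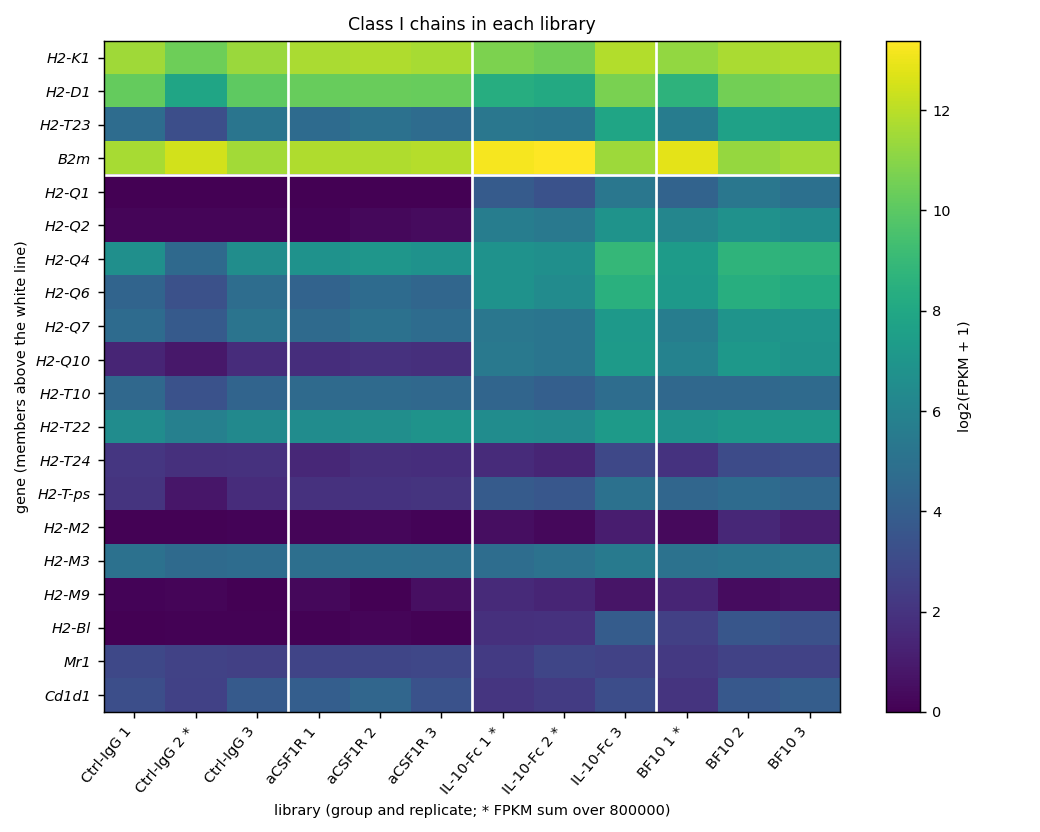
Heat map of log2(FPKM + 1) for the 4 member chains (above the white line) and the 16 tested other class I chains (rows) in 12 libraries (columns, with an asterisk for the 4 of high FPKM sum). H2-Q1, H2-Q2 and H2-Bl are dark throughout Ctrl-IgG and aCSF1R and lighter in the other 6 libraries.

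Transcripts of inducible and constitutive proteasome subunits were compared as a ratio within a library. In whole tumours this ratio does not measure which subunits the proteasomes hold, and the marker differences between the sets apply to it. Psmb8 over Psmb5, the constitutive subunit it replaces, was 1.18 to 1.53 in Ctrl-IgG, 1.46 to 1.74 in aCSF1R, 5.44 to 9.45 in IL-10-Fc and 3.77 to 8.66 in BF10. Psmb9 over Psmb6 was 0.471 to 0.607, 0.744 to 0.861, 1.41 to 1.68 and 1.21 to 1.52 in the same order, and separated aCSF1R from Ctrl-IgG as well. Psmb10 over Psmb7, the third pair, was 1.288 to 2.384, 2.362 to 3.126, 0.9719 to 2.16 and 1.402 to 2.356 in the same order. Ctrl-IgG overlapped every other group, while IL-10-Fc and BF10 lay below aCSF1R, BF10 narrowly. Without the 4 high-sum libraries Psmb8 over Psmb5 ran from 1.18 to 1.74 across the first set, against 3.77 to 5.72 across the second. Psmb9 over Psmb6 then ran from 0.542 to 0.861 against 1.21 to 1.68. Psmb10 over Psmb7 ran the other way, from 2.362 to 3.126 against 1.92 to 2.356. Of the constitutive partners, Psmb5 and Psmb6 were lower in the second set, with Psmb5 at -1.65 ± 0.35 in IL-10-Fc and -1.15 ± 0.35 in BF10 against Ctrl-IgG (limma adjusted p = 0.00464 and 0.0334), and Psmb6 at -0.86 ± 0.17 and -0.79 ± 0.17 (0.00272 and 0.00560). Psmb7 was at -0.11 ± 0.42 and -0.67 ± 0.42 (0.850 and 0.283). Psmb10 was lower too, at -0.71 ± 0.20 and -0.74 ± 0.20 (0.0204 and 0.0213), calls lost when values were centred by GC content. Of the 11 constitutive subunits listed, 4 were lower in IL-10-Fc and 2 in BF10 against Ctrl-IgG, and 0 were higher. The shares of all genes called lower were 23.6% and 13.2%. Without the 4 high-sum libraries 4 were lower in BF10, beside 21.6% of all genes.

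**Figure D5:**
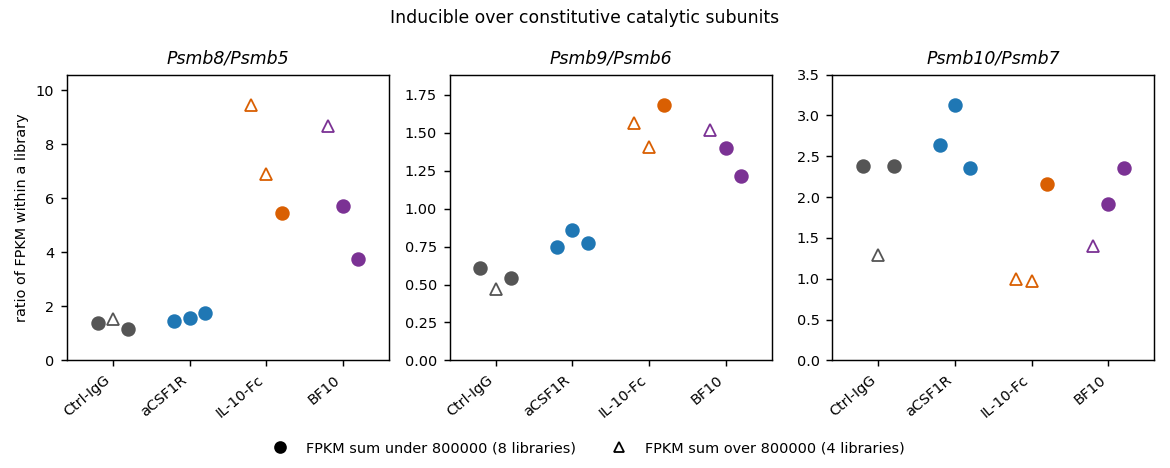
Ratio of the FPKM of an inducible proteasome subunit to that of the constitutive subunit it replaces (y axis from 0), for each library by group. Psmb8/Psmb5 and Psmb9/Psmb6 are higher in every library of IL-10-Fc and BF10 than in all others. For Psmb10/Psmb7 these 2 groups overlap Ctrl-IgG and lie below aCSF1R.

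Chaperones that work beside tapasin were listed with the loading and trimming genes. Canx (calnexin), which holds new heavy chains, was 425.5 to 453.7 FPKM in the first set and 105.8 to 222.1 FPKM in the second, a log2 change of -1.68 ± 0.24 in IL-10-Fc and -1.25 ± 0.24 in BF10 against Ctrl-IgG (limma adjusted p = 0.000501 and 0.00367). Calr (calreticulin) and Pdia3 (ERp57), partners in the loading complex, were lower in IL-10-Fc against Ctrl-IgG (-1.59 ± 0.44 and -1.29 ± 0.43, adjusted p = 0.0183 and 0.0404). Of the 9 listed loading and trimming genes, 3 were lower in that comparison, 1 in BF10 against Ctrl-IgG, 4 in IL-10-Fc and 1 in BF10 against aCSF1R, and 0 were higher in any. The shares of all genes called lower were 23.6%, 13.2%, 31.2% and 14.0%, so these counts are near the background. Without the 4 high-sum libraries 2 were lower in BF10 against Ctrl-IgG and 3 against aCSF1R, beside 21.6% and 21.7% of all genes.

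Regulators of the class I promoter gave no single direction. Of 15, 2 were higher and 3 lower in IL-10-Fc and 2 higher and 0 lower in BF10 against Ctrl-IgG, near the shares of all genes (10.1% higher and 23.6% lower in IL-10-Fc, 11.8% and 13.2% in BF10). Without the 4 high-sum libraries BF10 had 2 higher and 2 lower, beside 18.8% and 21.6% of all genes. Ciita, the class II transactivator, rose by 1.99 ± 0.40 and 2.82 ± 0.40 on the log2 scale (limma adjusted p = 0.00337 and 0.000623). Stat2, which carries the type I interferon signal, fell by 2.05 in IL-10-Fc against Ctrl-IgG (SE 0.66, adjusted p = 0.0347). Jak2, a kinase of the interferon-γ receptor, was the 1 gene of 9 tested ligands and receptors called in each comparison across the sets, at 15.1 to 23.5 FPKM in the first set and 76.0 to 161.3 FPKM in the second. Of all genes, in either direction, 33.7% were called in IL-10-Fc and 24.9% in BF10 against Ctrl-IgG. Against aCSF1R these shares were 42.2% and 25.0%. Without the 4 high-sum libraries 4 of the 9 were higher and 1 lower in BF10 against Ctrl-IgG, beside 18.8% and 21.6% of all genes. The counts were the same in BF10 against aCSF1R, beside 18.9% and 21.7% of all genes. Ifng, named for its role after its values were seen, was at 0.89 to 2.57 FPKM throughout.

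Genes induced by interferon were called in both directions. Of 20, 3 were higher and 10 lower in IL-10-Fc against Ctrl-IgG, and 1 was higher and 7 lower in BF10 against Ctrl-IgG, beside 10.1% and 23.6% of all genes in the former and 11.8% and 13.2% in the latter. Without the 4 high-sum libraries 2 were higher and 11 lower in BF10 against Ctrl-IgG, beside 18.8% and 21.6% of all genes. Rsad2, an antiviral enzyme, was 124.9 to 275.4 FPKM in the first set and 1.69 to 4.58 FPKM in the second, except BF10 replicate 3 at 52.5 FPKM. Cxcl10, a chemokine that draws T cells, fell, with log2 changes of -3.91 in IL-10-Fc and -3.20 in BF10 against Ctrl-IgG (SE 0.52 each, limma adjusted p = 0.000288 and 0.00132). Gbp4, a guanylate-binding protein, rose by 2.90 ± 0.31 and 2.28 ± 0.31 (8.94e-05 and 0.000495). No gene of this list was called in either comparison within a set.

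Among receptors that read class I, 4 of 13 were lower and 1 higher in each of IL-10-Fc and BF10 against Ctrl-IgG. All genes gave 23.6% lower and 10.1% higher for IL-10-Fc, with 13.2% lower and 11.8% higher for BF10. Without the 4 high-sum libraries BF10 had 4 lower and 2 higher, beside 21.6% and 18.8% of all genes. Cd8a, a coreceptor chain on T cells, was the one higher in BF10, at 3.53, 8.17 and 6.01 FPKM against 2.27, 2.19 and 2.10 FPKM in Ctrl-IgG (log2 1.06 ± 0.32, limma adjusted p = 0.0342). Klra4, an NK cell receptor of the Ly49 family, was at 41.7 to 147.6 FPKM in the first set, at most 2.02 FPKM in 5 libraries of the second and at 10.7 FPKM in BF10 replicate 3. The 8 CD8 T cell markers were called in both directions in BF10 against Ctrl-IgG, with Cd3g (limma adjusted p = 0.00578) and Cd8a higher and the cytotoxic granule genes Gzmb (log2 -2.28, 0.00662) and Prf1 (-2.24, 0.0249) lower. Their sum, of which Gzmb made the largest part in Ctrl-IgG, was 89.6 to 238.8 FPKM in Ctrl-IgG and 56.0 to 85.9 FPKM in BF10, and the list's median log2 change was 0.75.

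The genes whose profile over the 12 libraries was most like the mean profile of the 10, among 10272 genes averaging 5 FPKM or more, were Samd14, H2-T10, Bag6, Aamp, Dtx3 and Vegfb, at a mean absolute difference of 0.318 to 0.347 SD. The members themselves lay at 0.388 (H2-K1) to 1.33 (B2m). With group means subtracted the nearest included Aacs, Vegfb, Cuedc1, Steap3 and Vgll4, at 0.207 to 0.247. The 12 libraries share the difference by GC content given above, so this likeness is a description.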

How the data were processed

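RNA of 12 tumours was sequenced on an Illumina NextSeq from stranded mRNA libraries. The authors deposited FPKM per gene. The submitters' processing notes name STAR 2.7.5a, RSEM 1.3.3 and DESeq2 1.30.0 and the builds mm10 and GRCm38, without roles. The deposited comparison tables hold fold changes and p-values of the authors and were not used. FPKM carry no read counts, so depth is not known exactly and no count model was run. From the spacing of low values, relative depths were within 0.943 to 1.39 of Ctrl-IgG replicate 1. No pair of libraries was identical.

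Genes reaching 1 FPKM in 3 or more libraries were tested on log2(FPKM + 1) with limma 3.58.1 in R 4.3.3 (lmFit, eBayes with trend), all 12 libraries in 1 model, two-sided, with Benjamini-Hochberg adjustment. Fold changes are on that scale, which understates changes of low genes. Other values were computed in Python with pandas. The script was tested on simulated data. GC content and length are medians over GENCODE M21 transcripts, which hold 99.5% of the gene identifiers. Promoters are RefSeq, GRCm38.p6. All 10 members were named. From other lists the genes with the highest level or largest change among those called were named, along with the 6 nearest profiles of each kind. Some genes that this rule names are not reported here. Members and lists were chosen with earlier results of these data known.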

Additional observations from a re-analysis of the deposited data

How the results depend on the processing

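The 2 comparisons within a set and the departure called 0 members in limma in every fit run, those that left out 1 library included. The 4 across the sets moved, and so did the number of all genes called. In IL-10-Fc against Ctrl-IgG the 2 called members became 0 with TPM or with only the 2 groups in the fit. They became 4 with centring by GC content and 4 with a title term. That term split the libraries by whether the number after C in the sample title was above 4. In BF10 against Ctrl-IgG 2 became 0 with TPM, 1 with all genes above 0 or with only the 2 groups, and 4 without the 4 libraries. For IL-10-Fc against aCSF1R 3 (0 higher and 3 lower) became 5 with median-of-ratios size factors and 5 with GC centring, 3 higher and 2 lower in each, and 2 with all genes above 0 or with only the 2 groups. For BF10 against aCSF1R 0 became 3 with size factors, with only the 2 groups, with the title term and without the 4 libraries, and 4 with the log2 FPKM sum as a covariate and with GC centring. Beside these counts, in the same order of comparisons, 33.2%, 27.4%, 38.0% and 26.1% of all genes were called with size factors. GC centring gave 38.0%, 33.1%, 41.3% and 32.8%. The log2 FPKM sum gave 7144, 6901, 6735 and 6740 of 15813 genes, and the title term 6722, 4726, 8248 and 5518. Only the 2 groups gave 2734, 2797, 5936 and 5028. TPM gave 4837, 3463, 6777 and 3483 of 16823. All genes above 0 gave 4554, 3507, 5542 and 3542 of 36540. The cause was not tested. Leaving out 1 library gave 1 to 5 members in IL-10-Fc and 1 to 2 in BF10 against Ctrl-IgG. Against aCSF1R it gave 1 to 7 members in IL-10-Fc and 0 to 1 in BF10. Of all 15813 genes, 3565 to 8042, 2603 to 3739, 4223 to 9587 and 2494 to 3394 were called in that order. The counts of 5 and 7 came without IL-10-Fc replicate 3, the single IL-10-Fc library without a high sum. A count of 1 in place of more came without Ctrl-IgG replicate 3 or IL-10-Fc replicate 1 in IL-10-Fc against Ctrl-IgG, without Ctrl-IgG replicate 2 or BF10 replicate 2 or 3 in BF10 against Ctrl-IgG, and without aCSF1R replicate 2 or IL-10-Fc replicate 1 or 2 in IL-10-Fc against aCSF1R. Without Ctrl-IgG replicate 2, IL-10-Fc against Ctrl-IgG called 2 members, but both were lower (Tap1 and Tapbp) where the 2 of the full fit were higher. In BF10 against aCSF1R 1 member was called without BF10 replicate 1. The median over all genes was -0.39 in IL-10-Fc against Ctrl-IgG and -0.51 against aCSF1R, and size factors moved it to 0.01 and 0.02. With them 49.4% and 48.5% of called genes were higher, in place of 30% and 26.0%.

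Leaving out the 4 libraries and centring by GC content were chosen after seeing the data. No paired analysis was possible because the replicate numbers were given in the order of the samples and pair nothing. FPKM without counts limits what can be said of low genes such as Ifng.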
